A study of Mus musculus with 2 samples.

Results

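The genes of MHC class II presentation were followed in adipose tissue macrophages (ATMs), the macrophages that live between the fat cells. The members were a named list of 9 genes, of the 31053 genes in the count files: *H2-Aa*, *H2-Ab1* and *H2-Eb1* (class II chains), *Cd74* (the invariant chain), *H2-DMa*, *H2-DMb1* and *H2-DMb2* (chains of the H2-M, or DM, molecule), *H2-Oa* (a chain of H2-O, or DO) and *Ciita* (the class II transactivator). The study asked how a lipid-rich meal acts on ATMs and gave 1 droplet-based single-cell library from the epididymal fat of 3 pooled mice on control chow diet (CD) and 1 from 3 pooled mice that ate a high-fat diet (HFD) overnight. The mice were male, of the strain the labels write as C57/BL6, and 8 to 12 weeks old, and fat gave 11% of the energy in the CD and 58% in the HFD. No allele, transgene or drug was named for either group. Cells were sorted as CD45+ and F4/80+ with low or no Ly6C after T cells, B cells, eosinophils and neutrophils had been gated out. By this gate classical monocytes and cells without F4/80 are under-represented by design. The study's methods name CD11b+ and not Ly6C for the sort, so the exact gate is unsure. Each diet had 1 library and no replicate, and mice cannot be told apart within it. All differences below therefore compare these libraries or groups of cells inside them, carry no p-value, and have 95% intervals that cover counting error only.

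Class II molecules are pairs of an alpha and a beta chain that show peptides from endosomes to CD4+ T cells. The invariant chain escorts the pair to the endosome and blocks its groove, proteases trim it to a short fragment, DM swaps that fragment for a peptide, and DO holds DM back, above all in B cells and some dendritic cells. *Ciita* is the switch of the set: its protein binds no DNA itself but docks onto factors that sit on the S, X and Y boxes of class II promoters. In adipose tissue, macrophages and dendritic cells carry most of the class II, and long-lived resident macrophages are known for less of it than cells that came recently from monocytes.

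Of the 9 genes, 7 lay in the same region of chromosome 17 (GRCm38), with gaps between them. They ran from *H2-Oa* (chr17:34092340-34095234) over *H2-DMa* (chr17:34119541-34139101), *H2-DMb2* (chr17:34143307-34151555), *H2-DMb1* (chr17:34153072-34160230), *H2-Ab1* (chr17:34257689-34269419) and *H2-Aa* (chr17:34282744-34287823, minus strand) to *H2-Eb1* (chr17:34305867-34316674). The others were *Ciita* (chr16:10480059-10528418) and *Cd74*, on another chromosome. All but *H2-Aa* are on the plus strand. RefSeq promoters (GRCm38.p6, 250 bases before each start) were examined for 6 of the 9 genes. Those of *H2-Ab1*, *Cd74* and *Ciita* were not examined, so nothing is said of the motif there. The core of the Y box, GATTGG, read on both strands, was found at 6 of the 7 start sites of these 6 genes, against 4783 of all 32851 promoters (14.6%). It began 44 bases before the start in *H2-Oa*, 49 in *H2-Aa*, 60 in *H2-Eb1* (with another on the opposite strand at 35), 62 in *H2-DMb1* and 91 in *H2-DMb2*, while *H2-DMa* had it at 199 bases before 1 of its 2 starts and not at the other. These distances are from the RefSeq starts, which equal the gene boundary given above for *H2-Aa* and *H2-Eb1*. They lie downstream of it for *H2-Oa* (34092379), *H2-DMa* (34122832 and 34125518), *H2-DMb2* (34145249) and *H2-DMb1* (34153191). By the GENCODE boundaries above, the stretches of *H2-DMb2* and *H2-DMb1* are therefore inside the genes, and that of *H2-Oa* ends at the first base of its gene. The stretches that end with the motif are shown so that the genes can be set side by side. They are written 5′ to 3′ on the strand of the gene, with the motif in capitals:
H2-Oa, chr17:34092281-34092340, plus strand: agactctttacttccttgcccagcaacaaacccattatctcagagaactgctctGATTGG
H2-DMb2, chr17:34145134-34145163, plus strand: tgatgctaggctaagtcacttagtGATTGG
H2-DMb1, chr17:34153105-34153134, plus strand: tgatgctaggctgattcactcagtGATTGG
H2-Aa, chr17:34287867-34287926, minus strand: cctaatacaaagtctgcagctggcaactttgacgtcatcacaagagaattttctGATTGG
H2-Eb1, chr17:34305753-34305812, plus strand: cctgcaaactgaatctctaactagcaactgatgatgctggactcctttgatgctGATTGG
A match is a description of these letters and not evidence of a bound site.

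Cells with 200 to 3500 genes and at most 10% mitochondrial UMIs (unique molecular identifiers, the counted molecules) were kept. They were 2364 of 4459 CD barcodes with a median of 4490.5 UMIs and 2021 of 3163 HFD barcodes with a median of 2792 UMIs, and most of the rest exceeded the mitochondrial limit. Because a class was set by 1 UMI of a marker, shallow cells were more easily missed by it. The 8 macrophage markers were all found, at 12183 CPM (UMIs per 1000000) in CD and 7477 CPM in HFD, whereas *Ms4a1*, *Cd3e* and *Ly6g* had no UMI in either library. Over all kept cells, summed T or NK cell, neutrophil and endothelial markers stayed below 10 CPM, B cell markers came to 253 and 116 CPM, nearly all from *Ighm*, and stromal or adipocyte markers to 76.9 and 7.30 CPM. Some groups of cells described below stood above these totals in CD: neutrophil markers reached 41.1 CPM and stromal or adipocyte markers 128 CPM in Lyve1-Ccr2+ cells, T or NK cell markers 45.5 CPM in the dendritic group, and stromal or adipocyte markers 583 CPM in the neither group, where endothelial markers were at 38.1 CPM in CD and 25.8 CPM in HFD. The part of these in the results was not tested. The libraries shared 14 barcodes, and 7 kept cells carried one of them.

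Cells were placed in 6 groups that do not overlap, set by genes outside the list. A UMI of *Ccl17* or *Flt3* defined the dendritic group (42 CD and 41 HFD cells), and then 10 or more UMIs of *Lyz1* without *Lyve1* the Lyz1-high group (423 and 603). The rest was split by *Lyve1*, a marker of resident ATMs, and *Ccr2*, the chemokine receptor of monocytes and their recent progeny, into Lyve1+Ccr2- (672 and 260), Lyve1+Ccr2+ (492 and 153), Lyve1-Ccr2+ (392 and 410) and neither (343 and 554). Lyve1+ cells as a whole, with or without other markers, were 1172 of the CD cells (49.6%) and 415 of the HFD cells (20.5%), and of these 42.4% and 37.1% also held *Ccr2*. The dendritic group held 2103 CPM of the 10 dendritic markers in CD and 2345 CPM in HFD, against 235 and 240 CPM over all kept cells. *Ccl17* and *Flt3*, which set the group, are among the 10, so part of this gap follows from the rule. At least 2 of the 10 were found in 29 of the 42 CD cells and 24 of the 41 HFD cells. *Xcr1*, 1 of the 10 markers, was at 0 in the group in both libraries, and *Clec9a* in HFD. The macrophage markers of the group were at 4376 and 4123 CPM, so it is named by its rule and is not a pure cell type. In CD, 1 cell of the group carried T or NK cell markers. B cell markers came to 72.7 CPM in it in CD and 106 CPM in HFD, where 3 of its 41 cells held at least 2 of them.

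Class II genes were a large share of the RNA of these cells. The 9 members summed to 45829 CPM in CD (45709 to 45949), which is 4.58% of all UMIs, and to 54152 CPM in HFD (53992 to 54313). In CD, the sum was lowest in Lyve1+Ccr2- cells at 27847 CPM, followed by the neither group at 40204 CPM, Lyve1+Ccr2+ cells at 42720 CPM, Lyz1-high cells at 51716 CPM, Lyve1-Ccr2+ cells at 60127 CPM and the dendritic group at 71541 CPM. In HFD, Lyve1+Ccr2- cells were again lowest at 29522 CPM, then the neither group at 35657 CPM, Lyve1+Ccr2+ cells at 53084 CPM, Lyz1-high cells at 56092 CPM, Lyve1-Ccr2+ cells at 66307 CPM and the dendritic group at 81050 CPM. The order of the 6 groups was the same in both libraries, and no neighbours in it had overlapping counting intervals. As a rough reference for free RNA, 7 CD cells with UMIs of at least 2 endothelial markers had 8654 CPM (7783 to 9596), below the pooled level of every group. Of these cells, 4 were in the neither group, 2 in Lyve1-Ccr2+ and 1 in Lyve1+Ccr2+. As the last 2 groups hold *Ccr2* and doublets were kept, the 7 cells are not a clean measure of free RNA. Single cells of a group can lie at 8654 CPM, as given with the spread below, and the part of free RNA in the other values was not tested.

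**Figure D1:**
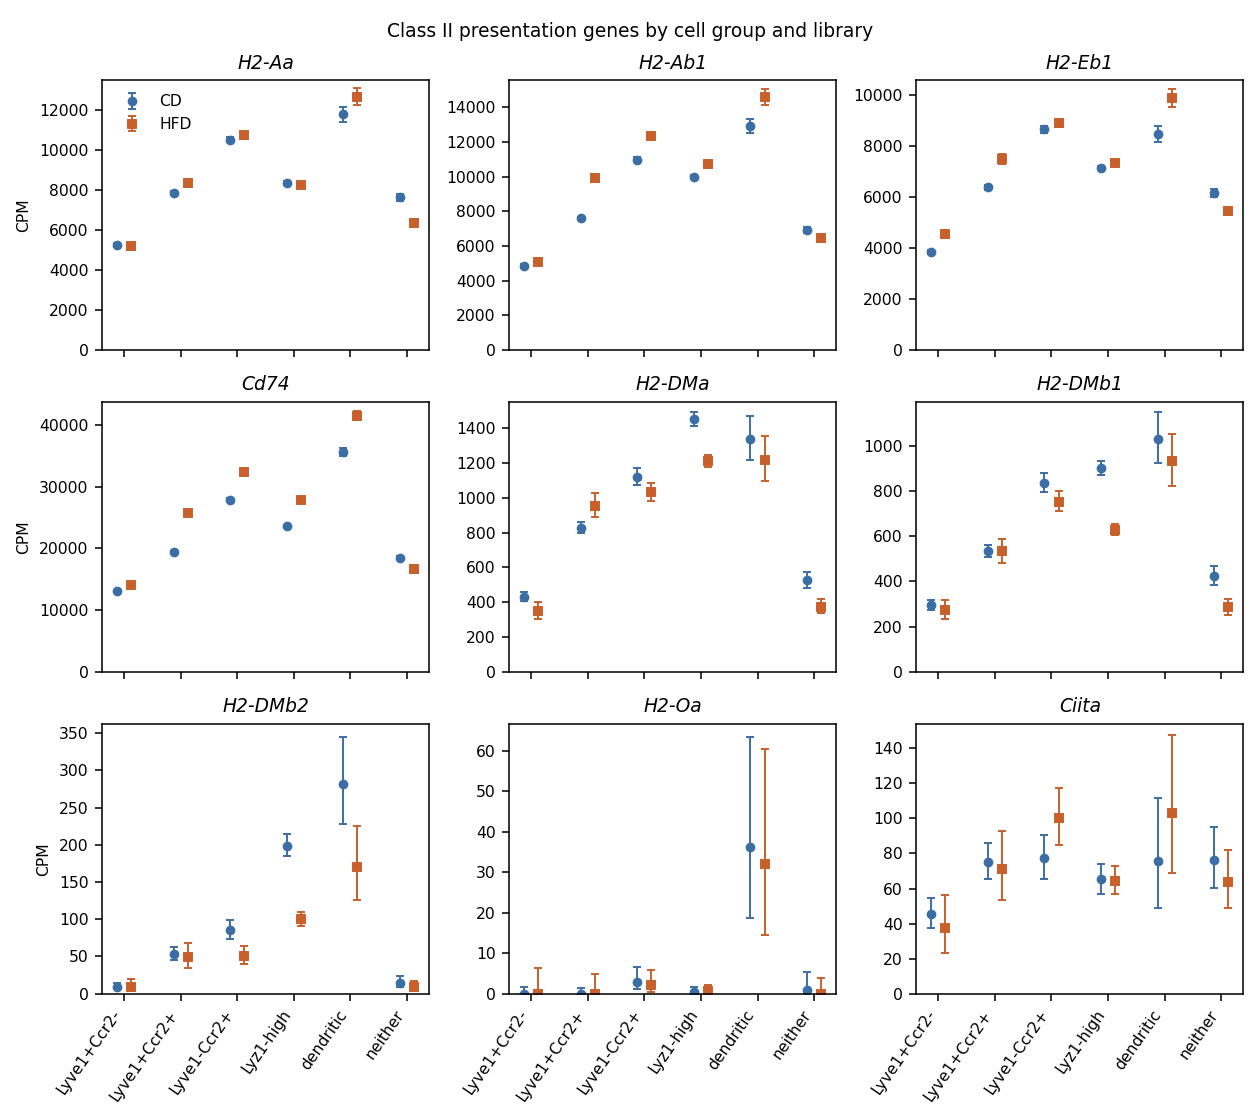
Level of each member in CPM (1 panel per gene, each with its own axis from 0) in 6 groups of cells, with CD as circles, HFD as squares and 95% Poisson intervals as bars. Lyve1+Ccr2- cells sit lowest or next to lowest for the genes with many UMIs, H2-DMb2 climbs from 9.46 CPM there to 282 CPM in the dendritic group of CD, and H2-Oa is seen mainly in the dendritic group.

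The chains moved as a block across groups. *H2-Aa*, the alpha chain of I-A, was at 5241 CPM in Lyve1+Ccr2-, 7836 in Lyve1+Ccr2+, 10511 in Lyve1-Ccr2+, 8358 in Lyz1-high, 11777 in dendritic and 7620.1 CPM in neither cells of CD. In HFD it was at 5179, 8329, 10731, 8234, 12652 and 6344 CPM in the same order, so both libraries placed it about 2-fold lower in Lyve1+Ccr2- than in Lyve1-Ccr2+ cells. *H2-Ab1*, the I-A beta chain, ranged from 4849 CPM in Lyve1+Ccr2- to 12935 CPM in dendritic cells of CD and from 5101 to 14604 CPM in HFD. *H2-Eb1*, the I-E beta chain, ranged from 3844 CPM in Lyve1+Ccr2- cells to 8638 CPM in Lyve1-Ccr2+ cells of CD. In CD its level in the dendritic group, 8458 CPM (8148 to 8778), could not be told from that in Lyve1-Ccr2+ cells by counting error, unlike the I-A chains. Mice of the C57BL/6 strain are known to lack the I-E alpha chain.

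*Cd74* (chr18:60803848-60812652, plus strand, GRCm38), whose protein is also a receptor for the cytokine MIF, was at 13132 CPM in Lyve1+Ccr2-, 19440 in Lyve1+Ccr2+, 27868 in Lyve1-Ccr2+, 23650.3 in Lyz1-high, 35604 in dendritic and 18495 CPM in neither cells of CD. In HFD the same groups held 14039, 25740, 32421, 27813, 41472 and 16703 CPM. The dendritic group was highest and Lyve1+Ccr2- cells lowest in both.

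The DM genes followed another order in CD, in which Lyz1-high cells were above Lyve1-Ccr2+ cells. *H2-DMa*, the alpha chain of DM, was at 1452 CPM (1413 to 1492) in Lyz1-high cells of CD and 1340 CPM (1218 to 1470) in the dendritic group, with overlapping intervals, and at 1122 CPM in Lyve1-Ccr2+ and 432 CPM in Lyve1+Ccr2- cells. In HFD it was at 1210.3 CPM in Lyz1-high, 1220.5 in dendritic, 1032 in Lyve1-Ccr2+ and 351 CPM in Lyve1+Ccr2- cells. *H2-DMb1*, the main DM beta chain, went from 295 CPM in Lyve1+Ccr2- cells to 1033 CPM in the dendritic group of CD and from 273 to 933 CPM in HFD. *H2-DMb2*, the other beta chain gene, had the widest relative range of the members other than *H2-Oa*. It was at 9.46 CPM in Lyve1+Ccr2- (23 UMIs), 53.6 in Lyve1+Ccr2+, 85.7 in Lyve1-Ccr2+, 199 in Lyz1-high and 282 CPM in dendritic cells of CD, and at 8.48 (5 UMIs), 49.2, 50.7, 99.7 and 170 CPM in HFD. The dendritic and Lyz1-high groups were above Lyve1-Ccr2+ cells in both libraries, with no overlap of intervals.

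*H2-Oa* had most of its few UMIs in the dendritic group. Of its 20 UMIs in CD, 12 were in the 42 dendritic cells (36.4 CPM, 18.8 to 63.5), and of its 15 UMIs in HFD, 9 were in the 41 dendritic cells (31.9 CPM, 14.6 to 60.6). Both Lyve1+ groups had 0 UMIs in both libraries. A floor of 3 counts is 1.23 CPM in Lyve1+Ccr2- and 1.04 CPM in Lyve1+Ccr2+ cells of CD, and 5.09 and 3.88 CPM in HFD. The 95% intervals reached up to 1.52 and 1.28 CPM in CD and 6.26 and 4.77 CPM in HFD. A level in these Lyve1+ groups was not detectable at this depth. Lyve1-Ccr2+ cells held 6 UMIs in CD (2.97 CPM, 1.09 to 6.47) and 3 in HFD, and Lyz1-high cells 1 and 3. The part of cells with B cell markers in the dendritic value was not tested. *Ciita* was a rare transcript in all groups. It was at 45.3 CPM (37.2 to 54.5) in Lyve1+Ccr2- and 77.3 CPM (65.6 to 90.4) in Lyve1-Ccr2+ cells of CD, and at 37.3 (23.4 to 56.5) and 100.05 CPM (84.6 to 118) in HFD. Its intervals overlapped between the dendritic, Lyve1-Ccr2+, Lyve1+Ccr2+ and neither groups of CD.

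Lyve1+Ccr2- cells were compared with Lyve1-Ccr2+ cells. The 9 resident markers, *Lyve1* included, summed to 17205 against 6013 CPM in CD and 12845 against 3965 CPM in HFD, whereas the 6 monocyte-derived markers, *Ccr2* included, were at 28166 against 29355 CPM in CD and 20569 against 28968 CPM in HFD, so in CD that list hardly separated the groups. Summed class II was lower in Lyve1+Ccr2- than in Lyve1-Ccr2+ cells by a log2 ratio of -1.11 (-1.12 to -1.10) in CD and -1.17 (-1.19 to -1.14) in HFD. In CD all 8 members with at least 100 UMIs were lower by 1.5-fold or more, where 9.18% of 4717 genes were. *H2-Aa* differed by -1.004, *H2-Ab1* by -1.18, *H2-Eb1* by -1.17, *Cd74* by -1.09, *H2-DMa* by -1.38, *H2-DMb1* by -1.51 and *Ciita* by -0.77 (-1.14 to -0.41). *H2-DMb2* had by far the widest gap, -3.18 (-3.88 to -2.55). In HFD all 7 members tested were lower, where 12% of 2609 genes were, from -0.97 for *H2-Eb1* to -1.56 for *H2-DMa*, with *Ciita* at -1.42 (-2.14 to -0.77).

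The rest of the pathway had no common direction. Of 33 other genes of class II presentation and its surroundings, 22 were tested in CD and 7 were higher in Lyve1+Ccr2- cells by the same limit, where 15.7% of all genes were: the endosomal proteases *Ctsl* (1.06) and *Ctsb* (0.93), the ubiquitin ligases *March8* (1.19) and *March1* (0.63), of which March1 takes class II off the surface, the costimulatory genes *Cd40* (1.12) and *Cd86* (0.72), and the transcription factor *Irf8* (0.99). *Cd44*, a partner of CD74 at the membrane, was the 1 lower gene (-1.07), and the median of the 22 was 0.16. Without the limit, 16 of the 22 ratios were above 0 in CD and 6 below, while in HFD 8 of 17 were above and 9 below. In HFD *Ctsl* (0.99), *Ctsb* (1.03) and *Lgmn*, an endosomal protease (0.71), were the 3 of 17 higher genes, near the 15.1% of all genes, the median was -0.0054, and *Mif* was the 1 lower gene (-0.62). Of the class I genes tested, the immunoproteasome subunit *Psmb8* was lower in both libraries (-0.62 and -0.74) and the peptide transporter *Tap1* in CD (-0.92), while the other 6 in CD and the other 6 in HFD did not pass the limit. Median mitochondrial share was 5.41% in Lyve1+Ccr2- and 3.40% in Lyve1-Ccr2+ cells of CD, and the summed ratio was -0.83 in CD and -0.98 in HFD with the limit at 5%. With classes left to overlap (all Lyve1+ against all Ccr2+ cells), it was -0.51 and -0.47.

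Lyve1+ cells that also held *Ccr2* were between these groups. Their sum was higher than in Lyve1+Ccr2- cells by 0.62 (0.60 to 0.63) in CD and 0.85 (0.82 to 0.87) in HFD. By the 1.5-fold limit 6 of 8 members were higher in CD, where 4.91% of genes were, and 6 of 6 in HFD, where 10.4% were. *H2-DMa* differed by 0.94 in CD and 1.45 in HFD. Within Lyve1+ cells, those with a UMI of *Timd4*, the resident receptor Tim4, had a lower sum than those without, at 27060 against 39110 CPM in CD (286 and 886 cells) and 30579 against 44100.1 CPM in HFD (28 and 387 cells). Across the cells of all groups but the dendritic one, class II also varied with the amount of *Lyve1*. With these cells thinned to 1000 UMIs, the sum in CD was 44748 CPM in cells with no *Lyve1* UMI, 30340 with 1, 29098 with 2 and 21400 with 3 or more (75 cells). In HFD it was 50491, 34136, 19422 and 25083 CPM, with 45 cells at 2 UMIs and 12 at 3 or more and no order was read from the last 2 values.

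Lyz1-high cells carried more class II than Lyve1+Ccr2- cells but less of most chains than Lyve1-Ccr2+ cells. Against Lyve1+Ccr2- cells, 7 of 8 members were higher by 1.5-fold in CD and 8 of 8 in HFD, where 14.2% and 14.6% of genes were, with the sum at 0.89 and 0.93. *H2-DMa* (1.75 and 1.79), *H2-DMb1* (1.61 and 1.20) and *H2-DMb2* (4.39, 3.80 to 5.06, and 3.56, 2.32 to 5.19) had wider ratios than *H2-Aa* (0.67 and 0.67). The median ratio of all genes tested in this comparison was -0.14 in CD and -0.11 in HFD. Of 23 pathway genes tested, 10 were lower and 2 higher by 1.5-fold in CD and 8 lower and 2 higher in HFD, where 25.7% and 22.6% of all genes were lower. Without the limit, 5 of these 23 ratios were above 0 in CD and 9 in HFD. *Irf8* (-3.22 and -2.63), *Ctsb* (-2.06 and -2.10) and *Lgmn* (-2.06 and -2.25) were among the lower ones. With the mitochondrial limit at 5% the summed ratio was 0.58 in CD, and with overlapping classes 0.43 in CD and 0.38 in HFD.

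Against Lyve1-Ccr2+ cells, the sum in Lyz1-high cells was lower by -0.22 in CD and -0.24 in HFD, below the 1.5-fold limit. *H2-DMb2* was higher by 1.21 (0.97 to 1.46) in CD and 0.98 (0.62 to 1.35) in HFD, the 1 of 8 members past the limit upward, where 4.94% and 3.89% of genes were. In HFD *Ciita* was lower past the limit (-0.64, -0.93 to -0.33), where 10.3% of genes were, and in CD 0 of 8 members were, where 10.6% of genes were. *H2-DMa* was at 0.37 and 0.23, while *H2-DMb1* was at 0.11 (0.02 to 0.19) in CD and -0.26 (-0.37 to -0.16) in HFD.

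The dendritic group had the highest sum, though not the highest level of each member, and the step from Lyve1-Ccr2+ cells was small. Over all other cells its sum was higher by 0.67 (0.65 to 0.68) in CD and 0.61 (0.59 to 0.63) in HFD. By 1.5-fold 4 of 8 members were higher in CD (*H2-Ab1* 0.65, *Cd74* 0.78, *H2-DMb1* 0.70, *H2-DMb2* 1.64) and 4 of 8 in HFD (*H2-Aa* 0.62, *Cd74* 0.67, *H2-DMb1* 0.70, *H2-DMb2* 1.34), where 5.34% and 3.52% of genes were. *H2-Oa* was at 12 UMIs against 8 elsewhere in CD, a log2 ratio of 5.76 (4.35 to 7.26), and at 9 against 6 in HFD, 5.38 (3.72 to 7.15). Against Lyve1-Ccr2+ cells alone the sum was higher by 0.25 and 0.29, and *H2-DMb2* (1.72 and 1.75) was the 1 of 8 members past the limit, where 5.51% and 3.97% of genes were. None of the pathway list was higher by 1.5-fold over all other cells (0 of 28 in CD and 0 of 27 in HFD), 7 and 5 genes were lower, where 10.3% and 5.19% of all genes were, and *Psmb8* of the class I list was higher in both (1.11 and 0.59). The median of all genes tested over all other cells was -0.17 in CD and -0.09 in HFD, and the sum in HFD was 0.99 when each cell had equal weight.

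Over all kept cells the chains and *Cd74* were slightly higher in HFD than in CD and the DM beta genes lower. The sum was higher by a log2 ratio of 0.24 (0.24 to 0.25), where the median of all 8708 genes tested was -0.01. *Cd74* went from 21162 to 26596 CPM (0.33, 0.32 to 0.34), *H2-Ab1* from 8387 to 10160.3 CPM (0.28, 0.26 to 0.29), *H2-Eb1* from 6496 to 7272 CPM (0.16, 0.15 to 0.18) and *H2-Aa* from 8002 to 8404 CPM (0.07, 0.06 to 0.08). *H2-DMa* at 969 and 991 CPM (0.03, -0.01 to 0.07) and *Ciita* at 66.8 and 70.9 CPM (0.08, -0.07 to 0.24) had intervals that hold 0. *H2-DMb1* was lower, at 648 and 586 CPM (-0.14, -0.20 to -0.09), as was *H2-DMb2*, at 95.4 and 70.7 CPM (-0.43, -0.58 to -0.29). None of the 8 members with enough UMIs differed by 1.5-fold, where 3.80% of genes were higher and 7.06% lower by that much. *H2-Oa*, with 20 and 15 UMIs, was under the minimum.

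**Figure D2:**
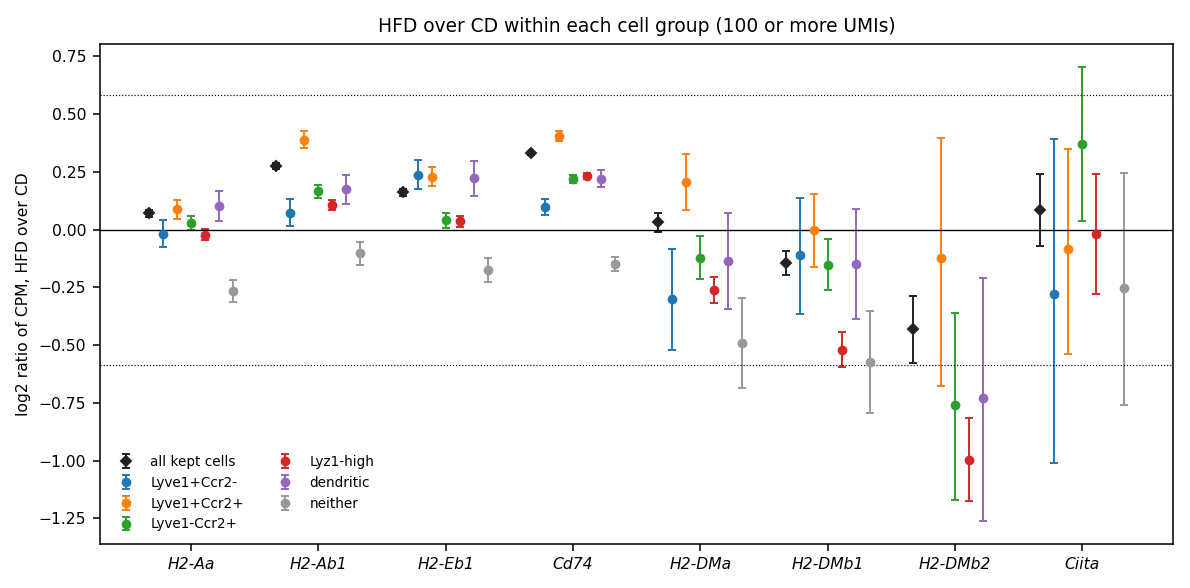
Log2 ratio of HFD over CD for 8 members (H2-Oa had too few UMIs) in all kept cells and in 6 groups of cells, with 95% counting intervals as bars and dotted lines at 1.5-fold. Cd74 lies above 0 in every group but neither, H2-DMb2 lies below 0 in the 4 groups with enough UMIs, and its values in Lyz1-high cells (-0.995), Lyve1-Ccr2+ cells (-0.76) and the dendritic group (-0.73) pass the 1.5-fold line.

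The mix of cells differed between the libraries, and Lyve1+Ccr2- cells were 28.4% of CD and 12.9% of HFD cells. With the HFD groups weighted by their share of UMIs in CD, the summed ratio was 0.15 in place of 0.24, *Cd74* 0.23, *H2-Ab1* 0.17, *H2-Aa* 0.00, *H2-DMa* -0.14, *H2-DMb1* -0.27 and *H2-DMb2* -0.77. Within groups *H2-Aa* had no common direction. It was at -0.02 in Lyve1+Ccr2- and in Lyz1-high cells, with intervals that hold 0, and at -0.26 in the neither group. In Lyve1-Ccr2+ cells it was at 0.03, in Lyve1+Ccr2+ cells at 0.09 and in the dendritic group at 0.10. When all cells with a UMI of another cell type's marker were left out, mostly for *Ighm* and leaving 866 CD and 1350 HFD cells, the summed ratio was 0.10 and *H2-Aa* was at -0.05. With *Ighm* not counted it was 0.21. *Ighm* itself was at 248 CPM in CD and 111 CPM in HFD, and its part in the result was not tested.

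In Lyve1+ cells the diet ratios were close to those of all cells: 0.25 (0.24 to 0.27) for the sum, 0.32 for *Cd74*, 0.30 for *H2-Ab1*, 0.24 for *H2-Eb1* and 0.07 for *H2-Aa*, and 0 of 8 past 1.5-fold (background 4.53% higher and 5.65% lower). The intervals of *H2-DMa*, *H2-DMb1*, *H2-DMb2* and *Ciita* all held 0. The ratio was smaller with equal weights for cells, at 0.09, and with cells thinned to 1000 UMIs before grouping, at 0.08, where fewer cells counted as Lyve1+ (622 in CD and 213 in HFD). Split by *Ccr2*, the sum was higher by 0.31 (0.30 to 0.33) in Lyve1+Ccr2+ and by 0.08 (0.06 to 0.11) in Lyve1+Ccr2- cells, and *H2-DMa* was at 0.21 (0.08 to 0.33) in the first and -0.30 (-0.52 to -0.08) in the second. Other genes moved within Lyve1+Ccr2+ cells too: from CD to HFD, resident markers went from 10915 to 5742 CPM, macrophage markers from 14980 to 10331 CPM and monocyte-derived markers from 38767 to 52840 CPM. Their part in the result was not tested.

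The DM beta genes were lower in Lyve1-Ccr2+ and Lyz1-high cells of HFD. In Lyz1-high cells, *H2-DMb2* was at 199 CPM in CD and 99.7 CPM in HFD, a log2 ratio of -0.995 (-1.18 to -0.82), *H2-DMb1* at 901 and 629 CPM (-0.52, -0.59 to -0.44) and *H2-DMa* at 1452 and 1210.3 CPM (-0.26, -0.32 to -0.21), while *Cd74* was higher by 0.23 (0.22 to 0.25). *H2-DMb2* was the 1 member past 1.5-fold, where 3.96% of 5805 genes were lower by that much. It was also the 1 member lower by 1.5-fold in Lyve1-Ccr2+ cells, at 85.7 and 50.7 CPM (-0.76, -1.17 to -0.36, background 4.17%), and in the dendritic group, at 282 and 170 CPM (-0.73, -1.26 to -0.21, background 6.24%). In Lyz1-high cells its ratio lay between -1.04 and -0.91 under all 10 alternatives tried, and that of *H2-DMb1* between -0.82 and -0.48. The Lyz1-high group itself differed between the libraries, at 17.9% of kept cells in CD and 29.8% in HFD. From CD to HFD its resident markers went from 2017 to 1254 CPM, macrophage markers from 5899 to 4600 CPM and monocyte-derived markers from 67000 to 73125 CPM. The part of these in the result was not tested.

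In the neither group, all 7 members tested were lower in HFD, from -0.10 for *H2-Ab1* to -0.57 for *H2-DMb1*, with the sum at -0.17 (-0.19 to -0.15), though 0 passed 1.5-fold (background 8.12% higher and 6.90% lower). Stromal or adipocyte markers were at 583 CPM in CD and 27.8 CPM in HFD there, macrophage markers at 15057 and 11754 CPM and resident markers at 12363 and 8376 CPM, and their part in the result was not tested. These were the shallowest cells, with a median of 1269.5 UMIs in HFD and 2500 in CD. The summed ratio there was 0.12 with all cells thinned to 1000 UMIs and 0.01 with classes set by 2 UMIs, so it had no stable direction.

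Among the other pathway genes, 3 of 30 were higher by 1.5-fold in HFD over all cells (background 3.80%) and 1 was lower (background 7.06%). *Ctsd*, the aspartic protease cathepsin D, went from 622 to 1172 CPM (0.91), *Cxcr4* from 44.9 to 92.6 CPM (1.05) and *Cd44* from 227 to 349 CPM (0.63), and both of the latter form complexes with CD74. *Cd40* went from 40.1 to 20.5 CPM (-0.96). *Ctss*, the protease that makes the last cuts of the invariant chain, was at 1094 and 1540.2 CPM (0.49), short of the limit. The same 4 genes passed it in Lyve1+ cells, with *Ctsd* at 0.73, *Cxcr4* at 1.04, *Cd44* at 0.82 and *Cd40* at -1.22. Of 8 class I genes, 0 passed it in either set, and *Irf1*, an interferon-induced factor, was at -0.34 over all cells.

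Because *H2-DMb1* and *H2-DMb2* are close copies, the share of *H2-DMb2* in the UMIs of the pair was compared between groups. It was 3.11% (1.98 to 4.63) in Lyve1+Ccr2-, 9.12% in Lyve1+Ccr2+, 9.28% in Lyve1-Ccr2+, 18.1% (16.9 to 19.3) in Lyz1-high and 21.4% (17.7 to 25.6) in dendritic cells of CD. In HFD it was 3.01% (0.99 to 6.89), 8.44%, 6.30%, 13.7% (12.4 to 15.0) and 15.4% (11.6 to 19.9). The share was lower in HFD in each group, and the intervals of the 2 diets were apart in Lyz1-high cells and in Lyve1-Ccr2+ cells (8.002 to 10.7 in CD and 4.99 to 7.83 in HFD). Of the 90-base stretches of the *H2-DMb1* transcript, 15.9% also occur in *H2-DMb2*; in the last 500 bases, from which this 3′ method reads, it was 12.7% for *H2-DMb1* and 0 of 411 for *H2-DMb2*. Reads were therefore separable over most of that stretch, and how the counting treated the rest is not given in the sources used here.

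**Figure D3:**
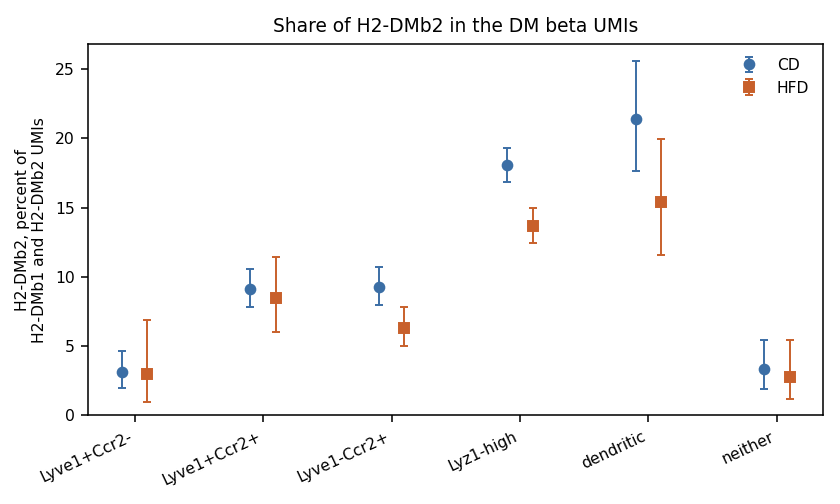
Percent of the UMIs of H2-DMb1 and H2-DMb2 together that were counted for H2-DMb2, by group of cells, with CD as circles, HFD as squares and 95% exact binomial intervals as bars. The share goes from about 3.11% in Lyve1+Ccr2- to 21.4% in dendritic cells of CD, and the HFD square is lower than the CD circle in every group.

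Lyve1+ cells were far from uniform in class II. With each cell thinned to 1000 UMIs (1162 CD and 382 HFD cells, with 10 and 33 shallower cells left out), the sum had a median of 29 UMIs in CD and 32 in HFD, and the 10th and the 90th percentile were 5 and 68 in CD and 6 and 69.9 in HFD. The SD left after the counting variance was taken off was 0.745 of the mean in CD and 0.749 in HFD. By variance over mean, *Cd74* ranked 3 of 662 genes in CD (9.79) and 3 of 659 in HFD (11.6), *H2-Aa* 7 and 13, *H2-Ab1* 9 and 12, and *H2-Eb1* 12 and 15. *H2-DMa* (181 and 143) and *H2-DMb1* (159 and 194) ranked lower, at under 1 UMI per cell. These ranks depend on the mean too, and do not show that the chains varied more for their level. Relative to the mean, the SD beyond counting was 0.762 to 0.779 for the chains and *Cd74* in CD and 0.731 to 0.792 in HFD. *H2-DMb1* was above these ranges, at 0.799 and 0.854. *H2-DMa* was below in CD (0.60) and above in HFD (0.861). These values have no interval.

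Relative to the mean, the spread was widest in Lyve1+Ccr2- cells, at 0.850 of it in CD and 0.826 in HFD. It was 0.468 and 0.467 in Lyz1-high cells, and the neither group of HFD was close to the widest at 0.811. Lyve1+Ccr2- cells also had the lowest mean. In UMIs their SD was the smallest of the groups, at 22.7 and 23.2, against 24.2 and 26.5 in Lyz1-high cells. By variance over mean the dendritic group was widest, at 33.6 and 36.8. In Lyve1+Ccr2- cells of CD the most common bin was 5 to 10 UMIs with 18.3% of cells, and a further 13.1% had under 5. The 90th percentile was 60.5, so this 1 group held cells near the lowest level and cells above the median of all CD cells (37). The pooled level of the 7 endothelial-marker cells of CD, 8654 CPM, falls in the 5 to 10 bin. These low cells are thus near or below that rough reference, which is not a clean measure of free RNA. The part of free RNA in them was not tested. Medians were 19 and 21 UMIs in Lyve1+Ccr2-, 38.5 and 47 in Lyve1+Ccr2+, 53 and 57 in Lyve1-Ccr2+, 43 and 49 in Lyz1-high, and 60 and 82.5 in dendritic cells of CD and HFD. In HFD the spread of Lyve1+ cells was 0.583 with the mitochondrial limit at 5%, 0.591 in cells with at least 1000 genes and 0.585 when thinned to 2000 UMIs, so depth and RNA quality moved with it, and their part was not tested.

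**Figure D4:**
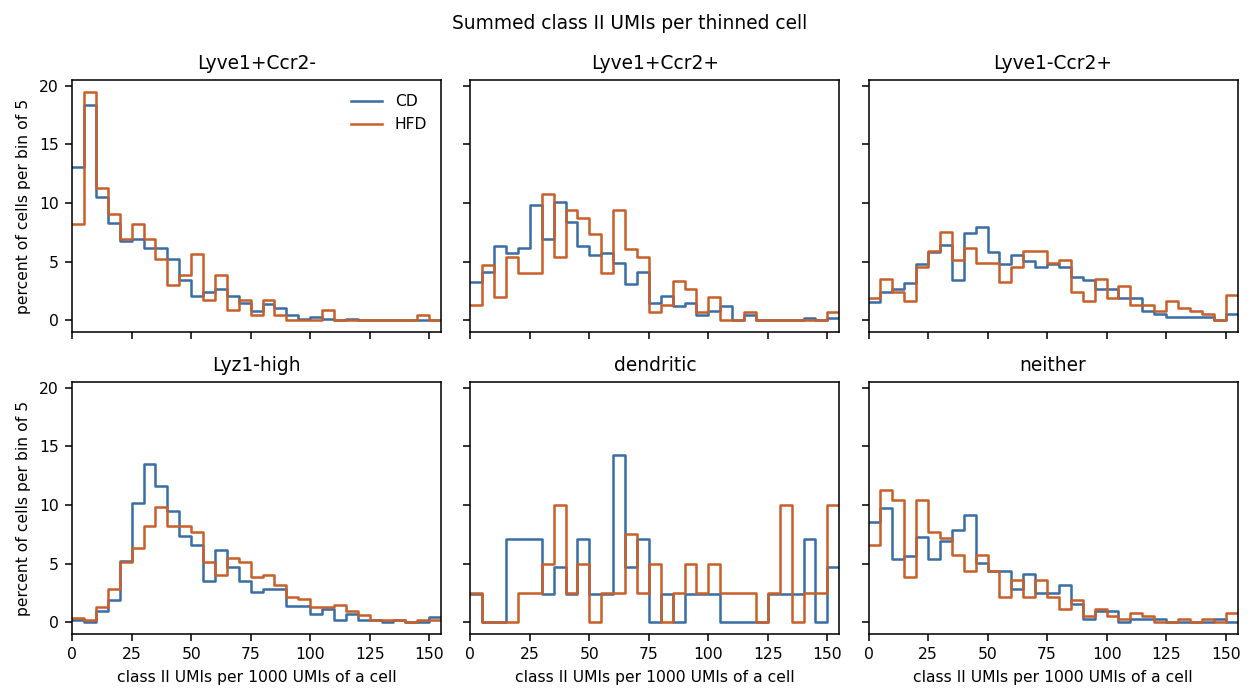
Percent of cells in each bin of 5 class II UMIs (sum of the 9 members) after every cell was thinned to 1000 UMIs, 1 panel per group and 1 line per diet, with the last bin for 150 or more. Lyve1+Ccr2- cells pile up at 5 to 10 UMIs with a long tail, whereas Lyz1-high cells peak higher and spread less relative to their mean, though not in UMIs.

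The chains and *Cd74* varied together from cell to cell, and the other members, which had fewer UMIs, had lower correlations with them. In thinned Lyve1+ cells of CD the mean was 0.55 UMIs for *H2-DMa* and 0.36 for *H2-DMb1*. It was 4.72 for *H2-Eb1* and 15.0 for *Cd74*. Counting noise lowers the correlation of a gene with few UMIs, so the lower values do not show a looser link to the chains. Across the 1172 Lyve1+ cells of CD, which share 1 library and differ in depth, log-scaled levels per 10000 UMIs of *H2-Aa*, *H2-Ab1*, *H2-Eb1* and *Cd74* had Pearson correlations of 0.82 to 0.86 with each other, and across the 415 HFD cells of 0.70 to 0.78. *H2-DMa* was at 0.50 to 0.52 with these 4 in CD and 0.47 to 0.51 in HFD, *H2-DMb1* at 0.49 in CD and 0.33 to 0.41 in HFD, and *Ciita*, with few UMIs, at 0.24 to 0.26 and 0.26 to 0.27. *H2-DMb2*, with a UMI in few of these cells, was at 0.11 to 0.12 in CD and 0.085 to 0.11 in HFD, and *H2-Oa*, with 1 UMI in CD and 0 in HFD, at 0.025 to 0.035 in CD.

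When Lyve1+ cells were ranked by thinned *H2-Aa* and the upper 387 CD cells (127 in HFD) set against as many of the lowest, the other members followed. *H2-Aa* chose the cells, and members are described without a test. In CD *H2-Eb1* was at 8637 against 1405 CPM (2.62), *H2-Ab1* at 2.50, *Cd74* at 2.27, *H2-DMb1* at 1.83, *Ciita* at 86.0 against 24.9 CPM (1.79), *H2-DMa* at 1.68 and *H2-DMb2* at 1.01, where 2.89% of 3944 genes were higher by 1.5-fold. In HFD the 5 members tested besides *H2-Aa* were at 1.84 to 2.28 (background 10.9%). Class I genes had no such step: *B2m* was at -0.01 and 0.10, *H2-K1* at -0.00 and -0.39, and *H2-D1* at 0.33 and 0.30 in CD and HFD, and *Psmb8* (0.63 in both) alone was past 1.5-fold.

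Cells high in *H2-Aa* had less of the resident genes *Lyve1*, *Fcna* and *Folr2* and more of the monocyte-derived genes *Ccr2*, *Ear2* and *Lyz1*. Values of the resident *Cd163*, *Mrc1*, *Gas6*, *F13a1* and *Selenop* and of the monocyte-derived *Fn1* and *Plac8* are not given here, so nothing is said of the whole lists. *Lyve1* was at -0.96 in CD and -1.16 in HFD, *Fcna* at -1.48 and -2.09, *Folr2* at -0.51 and -1.34, and *Timd4* at -1.74 in CD. A UMI of *Lyve1* chose the Lyve1+ cells, so its ratio is not independent of that rule where depth differs. *Ccr2* was at 1.60 and 1.65, *Ear2* at 1.15 and 1.21, and *Lyz1* at 0.84 and 1.67, while *Retnla*, the RELMα gene, was at 0.02 and 0.49. In HFD, *Ctss* was higher (0.89) and *Ctsb* (-0.64) and *Lgmn* (-0.74) lower. The cells high in *H2-Aa* were deeper (median 4714 against 3463 UMIs in CD and 3208 against 1923 in HFD) and had a smaller mitochondrial share (3.77% against 5.62% and 3.24% against 5.44%), and the part of these in the ratios was not tested.

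**Figure D5:**
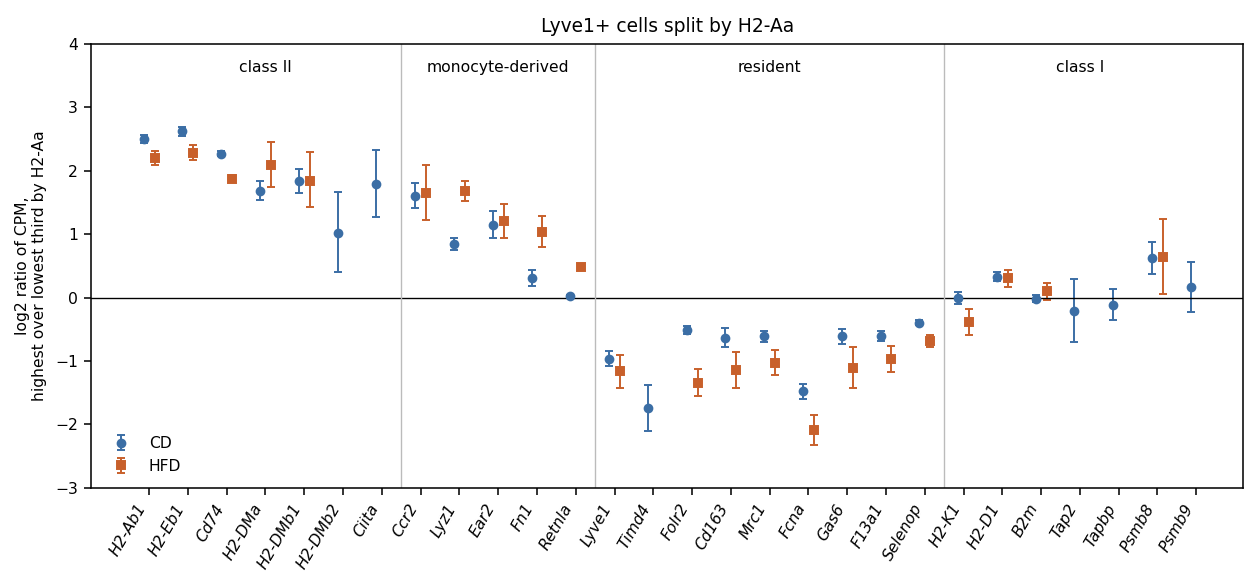
Log2 ratio of the Lyve1+ cells highest in H2-Aa over those lowest in it (387 cells each in CD, 127 in HFD) for members, monocyte-derived, resident and class I genes, with 95% counting intervals. H2-Aa chose the cells. The 7 other members shown for CD lie between 1.01 and 2.62, Ccr2 at 1.60, Fcna at -1.48 and B2m at -0.01.

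Among 594 genes outside the list, those most like the summed class II across Lyve1+ cells in both libraries were *Ccr2* (0.36 in CD and 0.38 in HFD) and *Lyz2* (0.33 and 0.45), followed by *Cd52*, *Rplp0*, *Fcrls*, *Rpl3*, *Mgl2* and *Rpl13*. Least like it were *mt-Co1* (-0.38 and -0.45), *Ednrb*, an endothelin receptor (-0.37 and -0.43), and *Lyve1* (-0.36 and -0.44), then *mt-Atp6*, *mt-Co3*, *Fcna*, *mt-Nd1* and *mt-Cytb*. These are correlations over the same 1172 and 415 cells, and mitochondrial genes among them follow the mitochondrial share given above.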

How the data were processed

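Droplet-based 3′ libraries (1 CD, 1 HFD) were used. For each library the authors deposited a matrix of UMI counts without normalization, and the submitters' processing notes name Cell Ranger 3.0.2 and the mm10 genome. The values were whole numbers, and 0 columns were left unused. Cells, groups and lists were taken as described with each result. The members and lists were chosen with earlier results of these data known.

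Levels are UMIs summed over the cells of a group, as CPM, with an exact Poisson interval. For ratios the interval was the exact binomial one conditional on the total, and for shares the Clopper-Pearson one, all at 95%. A gene was tested against a 1.5-fold limit if it had at least 100 UMIs in the 2 sets of cells together, and passed it if its interval was also clear of 0. No p-value was computed, since cells are not replicates, and floors of 3 counts were used for genes at 0. Spread was measured after thinning cells to 1000 UMIs. Named genes were all 9 members, pathway, class I and marker genes past 1.5-fold or needed as reference, and the 8 genes most and least like the summed class II. Some pathway genes past the limit were counted and not named, and *Ctss*, *Irf1* and *Ighm* were named after their values had been seen.

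Scrublet in scanpy 1.11.5 called 2 of 4459 CD and 7 of 3163 HFD barcodes by its own threshold, too few to rely on. Doublets were kept, and in an alternative as many top-scoring barcodes as the expected rate gives (159 and 80 barcodes, 106 and 65 of the kept cells) were removed. Python 3.11.15, numpy 2.4.6, pandas 2.3.3 and scipy 1.17.1 were used. Counts for HFD over CD were simulated with counting noise only (8695 genes, 200 changed 2-fold). In them 98.5% of changed and 0.329% of other genes passed the limit, and 95.2% of intervals held the true ratio. The simulation had no spread between cells or mice, so it checks the calculation and not how the limit performs on the real counts. Gene positions are from GENCODE M21 (GRCm38), with the same identifiers as in the files for all 9 members, and promoter sequences from RefSeq (GRCm38.p6). Alternatives changed the mitochondrial limit, the least number of genes, doublets, cells with another type's marker, the scaling, the weight and depth of cells, and the limits of the groups; 2 kinds were added after seeing the data, as were the alternatives for diet ratios in Lyz1-high and neither cells.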

Additional observations from a re-analysis of the deposited data

Results flagged for a closer look

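The HFD over CD ratios pointed in opposite directions in different groups of cells for 6 quantities, each with a counting interval away from 0 on both sides. The differences were not tested, since each diet had 1 library. For the summed class II, the log2 ratio in Lyve1+Ccr2+ cells minus that in the neither group was 0.49. The same difference was 0.49 for *H2-Ab1*, 0.55 for *Cd74* and 0.70 for *H2-DMa*. For *H2-Aa* the ratio in the dendritic group minus that in the neither group was 0.37, and for *H2-Eb1* the ratio in Lyve1+Ccr2- cells minus that in the neither group was 0.41. The neither group of HFD was the shallowest group of cells (median 1269.5 UMIs), and its summed ratio changed sign when cells were thinned to 1000 UMIs (0.12).

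For *H2-DMb1*, Lyz1-high cells were above Lyve1-Ccr2+ cells in CD and below them in HFD, and the log2 ratio in HFD minus that in CD was -0.37. This difference was not tested either. In Lyz1-high cells *H2-DMb1* was at 901 CPM in CD and 629 CPM in HFD, and in Lyve1-Ccr2+ cells at 838 and 754 CPM.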

How the results depend on the processing

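The summed log2 ratios between diets (all and Lyve1+ cells) and between groups kept their direction under every alternative run, and 0 members passed 1.5-fold for HFD over CD under all 6 alternatives for that count. Values that moved out of the counting interval (or, for the spread, by over 10%) are given as log2 ratios, CD before HFD where there is a pair. With at most 5% mitochondrial UMIs, the values were HFD over CD 0.18, HFD over CD in Lyve1+ cells 0.19, Lyve1+Ccr2- over Lyve1-Ccr2+ -0.83 and -0.98, Lyz1-high over Lyve1+Ccr2- 0.58 and 0.68, dendritic over other cells 0.58 and 0.54, spread 0.607 and 0.583. With at most 20%, the values were Lyve1+Ccr2- over Lyve1-Ccr2+ -1.13 (CD), Lyz1-high over Lyve1+Ccr2- 0.97 and 0.996, dendritic over other cells 0.72 and 0.65. With at least 1000 genes per cell, the values were HFD over CD 0.29, HFD over CD in Lyve1+ cells 0.35, Lyve1+Ccr2- over Lyve1-Ccr2+ -1.07 (HFD), Lyz1-high over Lyve1+Ccr2- 0.87 and 0.78, dendritic over other cells 0.62 and 0.50, spread 0.591 (HFD). Without the highest doublet scores, the values were Lyve1+Ccr2- over Lyve1-Ccr2+ -1.13 (CD), dendritic over other cells 0.69 (CD). Without cells with another type's marker, the values were HFD over CD 0.10, HFD over CD in Lyve1+ cells 0.28, Lyve1+Ccr2- over Lyve1-Ccr2+ -1.25 and -1.12, Lyz1-high over Lyve1+Ccr2- 1.01 and 0.998, dendritic over other cells 0.75 and 0.75, spread 0.836 (HFD). With *Ighm* not counted there, the values were HFD over CD 0.21, Lyve1+Ccr2- over Lyve1-Ccr2+ -1.16 and -1.12, Lyz1-high over Lyve1+Ccr2- 0.93 and 0.97, dendritic over other cells 0.75 and 0.66. Without mitochondrial, ribosomal protein and *Retnla* UMIs in the total, the values were HFD over CD 0.25, Lyve1+Ccr2- over Lyve1-Ccr2+ -1.16 and -1.24, Lyz1-high over Lyve1+Ccr2- 1.01 and 1.09, dendritic over other cells 0.71 (CD). With equal weights for cells, the values were HFD over CD 0.18, HFD over CD in Lyve1+ cells 0.093, Lyve1+Ccr2- over Lyve1-Ccr2+ -1.14 (HFD), Lyz1-high over Lyve1+Ccr2- 0.94 and 1.02, dendritic over other cells 0.82 and 0.99. With cells thinned to 1000 UMIs before grouping, the values were HFD over CD 0.26, HFD over CD in Lyve1+ cells 0.077, Lyve1+Ccr2- over Lyve1-Ccr2+ -0.98 and -1.01, Lyz1-high over Lyve1+Ccr2- 0.93 and 0.99, dendritic over other cells 0.74 and 0.97. With the median of all genes set to 0, the values were HFD over CD 0.25. With groups set by 2 UMIs, or 20 of *Lyz1*, the values were Lyve1+Ccr2- over Lyve1-Ccr2+ -1.20 and -1.36, Lyz1-high over Lyve1+Ccr2- 0.98 and 1.11, dendritic over other cells 0.93 and 0.56. With overlapping classes, the values were Lyve1+Ccr2- over Lyve1-Ccr2+ -0.51 and -0.47, Lyz1-high over Lyve1+Ccr2- 0.43 and 0.38. With cells thinned to 2000 UMIs, the values were spread 0.585 (HFD). Single members reversed as follows: *H2-Aa* for HFD over CD was -0.050 without cells with another type's marker and, in Lyve1+ cells, -0.064 with equal weights, and *Ciita* for Lyz1-high over Lyve1+Ccr2- cells of CD was -0.35 (-1.92 to 0.96) with cells thinned to 1000 UMIs. In the neither group, HFD over CD was 0.12 when thinned and 0.0050 with groups set by 2 UMIs. The causes were not tested, except that thinning and stricter limits leave fewer cells and UMIs by construction. Of the other values for single members and added results, 437 stayed within their interval and 318 moved out of it. A change of sign was counted as a reversal only where the main interval was clear of 0, so some of these values can have changed sign. No paired analysis was possible because each diet had 1 library, and for the same reason no replicate could be left out. The alternative without *Ighm* and those for HFD over CD in the Lyz1-high and neither groups were chosen after seeing the data. *H2-Oa* (20 and 15 UMIs) could not be compared between diets at this depth.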
